A study of Homo sapiens with 36 samples.

Results

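The 10 noncoding genes described here carry small nucleolar RNAs (snoRNAs) in their introns, and their RNA levels were followed across every condition of an RNA sequencing experiment in BxPC-3 cells, an established human pancreatic adenocarcinoma line. These genes, SNHG1, SNHG5, SNHG7, SNHG8, SNHG12, SNHG15, SNHG16, SNHG19, GAS5 and ZFAS1, were chosen by name, and all 10 were among the 14988 of 29744 genes that passed the count filter. Cells of genotype WT received MS78, JQ1, TRAP-1-NegP, TRAP-1-NegB or TRAP1 at 3 µM, or the solvent DMSO, and were collected after 2 or 4 h. Each of the 12 groups held 3 libraries of polyadenylated RNA, 36 in all. TRAP1 names a compound here and not a gene. JQ1 blocks the bromodomains of BET proteins, which read acetylated histones. The labels do not say what the other compounds bind or what the endings NegB and NegP stand for. The series title speaks of TRAP-1 and control compounds, without saying which are the controls. The labels also do not say whether replicates were separate cultures, so p-values measure only the spread between these libraries, which may be technical.

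A snoRNA host gene is transcribed into a precursor whose introns hold snoRNAs. As the introns are spliced out and trimmed, box C/D snoRNAs join the proteins that methylate ribosomal RNA, and box H/ACA snoRNAs join those that turn its uridines into pseudouridines. The joined exons of a noncoding host encode no conserved protein. Several of them, GAS5 and SNHG1 among the best known, are translated briefly and then degraded by nonsense-mediated decay, so that the level of the spliced RNA is set by how fast it is made and how fast it is lost. Many hosts begin with a cytosine and a run of pyrimidines, the 5′-terminal oligopyrimidine start that ribosomal protein genes share. Polyadenylated RNA sequencing measures the spliced host RNA and not the mature snoRNAs, which have no poly(A) tail.

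Total estimated counts per library lay between 15288688 and 26608325, and the 10 genes together took 10004 to 21903 of them. TRAP1 replicate 1 at 4 h had no count for 1287 of the genes tested, where replicates 2 and 3 had none for 929 and 503. MS78 replicate 1 at 2 h had the largest total. Its chi-square per degree of freedom, a measure of difference between libraries, was 27.6 and 44.5 against replicates 2 and 3, which had 7.07 between them. These 2 libraries stood apart from their groups. Lesser gaps lay elsewhere: DMSO replicate 1 at 4 h had no count for 650 genes tested, its replicates 2 and 3 for 381 and 367. Counts of genes called were also taken with each library left out. Of the marker lists, the 6 epithelial genes summed to 8754 to 11604 TPM, the 5 mesenchymal genes to 0.948 to 3.57 TPM and the 6 haematopoietic and endothelial genes to 3.39 to 8.67 TPM over all 36 libraries. PDGFRB was at 0 in 33 libraries, PTPRC in 32, COL3A1 in 23, COL1A2 in 15, THY1 in 12, PECAM1 in 2 and VWF in 1, while COL1A1 (up to 2.4 TPM), CD14 (up to 5.03 TPM), CD3E (up to 3.74 TPM) and CDH5 (up to 3.3 TPM) were at 0 in none. These are bulk libraries, in which fewer cells and less RNA per cell cannot be told apart.

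The 10 genes hold 37 annotated snoRNAs on GRCh38.p14, 28 of them box C/D and 8 box H/ACA. GAS5 (chromosome 1, 173863901 to 173869045, minus strand) holds the most, 11, and SNHG1 (chromosome 11, 62851978 to 62855885, minus strand) holds 9. SNHG12 (chromosome 1, 28578538 to 28582983, minus strand) has 4, 3 of them H/ACA. SNHG16 (chromosome 17, 76557764 to 76565348, plus strand) and ZFAS1 (chromosome 20, 49278178 to 49289260, plus strand) have 3 each, and SNHG5 (chromosome 6, 85677007 to 85678733, minus strand) and SNHG7 (chromosome 9, 136724594 to 136728184, minus strand) have 2 each. SNHG8 (chromosome 4, 118278762 to 118279823, plus strand), SNHG15 (chromosome 7, 44983023 to 44986696, minus strand) and SNHG19 (chromosome 16, 2154782 to 2155358, minus strand) carry a single one, SNORA24, SNORA9 and SNORD60. The count table has rows for 33 of the 37 snoRNAs, whose counts summed to at most 10.7 in any library, so their own levels could not be followed. The snoRNAs of the single-cargo hosts are printed from GENCODE 29 transcripts, as the product that each of these RNAs releases. Capitals mark box C and box D in SNORD60 and the H box and ACA in the others.
SNORD60 (from SNHG19): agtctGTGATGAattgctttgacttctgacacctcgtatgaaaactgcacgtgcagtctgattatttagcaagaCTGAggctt
SNORA24 (from SNHG8): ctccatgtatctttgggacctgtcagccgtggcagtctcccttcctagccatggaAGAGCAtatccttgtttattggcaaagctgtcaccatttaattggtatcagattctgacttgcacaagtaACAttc
SNORA9 (from SNHG15): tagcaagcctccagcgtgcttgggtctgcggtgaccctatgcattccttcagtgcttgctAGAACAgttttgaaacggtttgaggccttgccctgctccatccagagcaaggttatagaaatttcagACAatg

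Start regions are shown as a description, and their part in the changes given below was not tested. Each runs from 45 bases before to 25 bases from the start that RefSeq gives on GRCh38.p14, the 46th base being the start. Capitals mark TATAA before the start and, at the start, a C followed by at least 2 more C or T. For SNHG12 and ZFAS1 the start used lies inside the gene interval given above. The table used held 9 of the 10 genes; SNHG15 is named only.
SNHG12 chr1:28581849-28581918 (minus strand): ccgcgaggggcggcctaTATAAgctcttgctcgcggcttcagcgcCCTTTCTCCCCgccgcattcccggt
SNHG19 chr16:2155334-2155403 (minus strand): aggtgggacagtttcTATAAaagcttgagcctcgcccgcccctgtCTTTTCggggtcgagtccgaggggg
SNHG5 chr6:85678709-85678778 (minus strand): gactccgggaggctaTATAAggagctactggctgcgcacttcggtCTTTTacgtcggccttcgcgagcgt
ZFAS1 chr20:49278597-49278666 (plus strand): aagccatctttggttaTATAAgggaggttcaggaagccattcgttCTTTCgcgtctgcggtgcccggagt
SNHG7 chr9:136728160-136728229 (minus strand): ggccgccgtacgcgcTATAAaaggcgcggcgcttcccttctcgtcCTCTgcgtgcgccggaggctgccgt
SNHG8 chr4:118278717-118278786 (plus strand): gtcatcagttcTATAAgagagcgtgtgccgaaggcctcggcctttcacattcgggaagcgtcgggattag
SNHG1 chr11:62855861-62855930 (minus strand): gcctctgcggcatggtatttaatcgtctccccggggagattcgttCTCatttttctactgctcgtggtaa
SNHG16 chr17:76557719-76557788 (plus strand): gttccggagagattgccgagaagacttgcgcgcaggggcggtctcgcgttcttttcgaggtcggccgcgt
GAS5 chr1:173869021-173869090 (minus strand): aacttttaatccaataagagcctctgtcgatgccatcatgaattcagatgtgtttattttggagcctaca
The letters TATAA stood on the gene's strand in the 50 bases before the start in 6 of these 9 genes (SNHG5, SNHG7, SNHG8, SNHG12, SNHG19 and ZFAS1), against 4.74% of all 35116 promoters in the table. A start of C followed by at least 4 C or T was found in 4 (SNHG5, SNHG12, SNHG19 and ZFAS1), against 4.07% of all promoters. Those 4 genes had both features, against 0.117% of all promoters. CACGTG, the E-box that MYC binds and that reads the same on both strands, was found in the 300-base window (250 before to 50 after the start) of SNHG7 alone, against 7.26% of all promoters. The annotated starts of SNHG8, SNHG16 and GAS5 did not open with a C followed by at least 2 C or T. At SNHG8 the annotated start is the last base of the run cctttc. Only the annotated start of each gene was searched, so a run that opens at another start would be missed. A match of letters is a description and not a shown site.

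The genes differed widely in abundance. In DMSO at 2 h SNHG5 had the highest level per length, 719 ± 17.4 TPM, followed by ZFAS1 at 449.6 ± 30.4 TPM (authors' TPM, mean ± SD, n = 3 throughout). SNHG7 (145 ± 9.5 TPM), GAS5 (145 ± 10.8 TPM) and SNHG8 (128 ± 17.5 TPM) came next, and SNHG1 (107 ± 3.2 TPM) and SNHG19 (97.6 ± 3.05 TPM) after them. SNHG15 (59.97 ± 2.27 TPM), SNHG12 (43.1 ± 5.84 TPM) and SNHG16 (38.2 ± 1.75 TPM) were the lowest. SNHG7 and GAS5 did not differ beyond their spread. Over the 12 groups, SNHG19 had the widest range of group means, 5.61-fold, between 44.2 TPM with TRAP-1-NegB at 4 h and 248 TPM with TRAP1 at 2 h. SNHG1 spanned 3.31-fold and SNHG12 3.08-fold, and the other 7 between 1.33-fold (SNHG5) and 1.97-fold (SNHG7). These ranges are on TPM, which is not TMM-adjusted. In CPM, defined below, ZFAS1 means ran from 141 with MS78 at 2 h to 280 with TRAP1 at 4 h. SNHG8 means ran from 21.6 CPM with DMSO at 2 h to 44.6 CPM with TRAP1 at 4 h. Those of SNHG16 ran from 58.0 to 104 CPM between the same groups. For 8 of the 10 genes the lowest TPM mean was that of TRAP-1-NegB at 4 h. For SNHG15 it was JQ1 at 4 h and for SNHG16 it was TRAP-1-NegP at 4 h. The share of all genes with their lowest TPM in that group was not counted. In CPM, TRAP-1-NegB at 4 h was lowest for SNHG1, SNHG12 and SNHG19, and JQ1 at 4 h for SNHG15. MS78 at 4 h was lowest for SNHG5, SNHG7 and GAS5, MS78 at 2 h for ZFAS1, and DMSO at 2 h for SNHG8 and SNHG16. Levels below are CPM, counts scaled to a common library total after edgeR's TMM adjustment, which compare groups but not genes, and changes are log2 fold changes with their SE from edgeR's quasi-likelihood test, with Benjamini-Hochberg adjustment over all 14988 genes and a call at an adjusted p under 0.05.

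**Figure D1:**
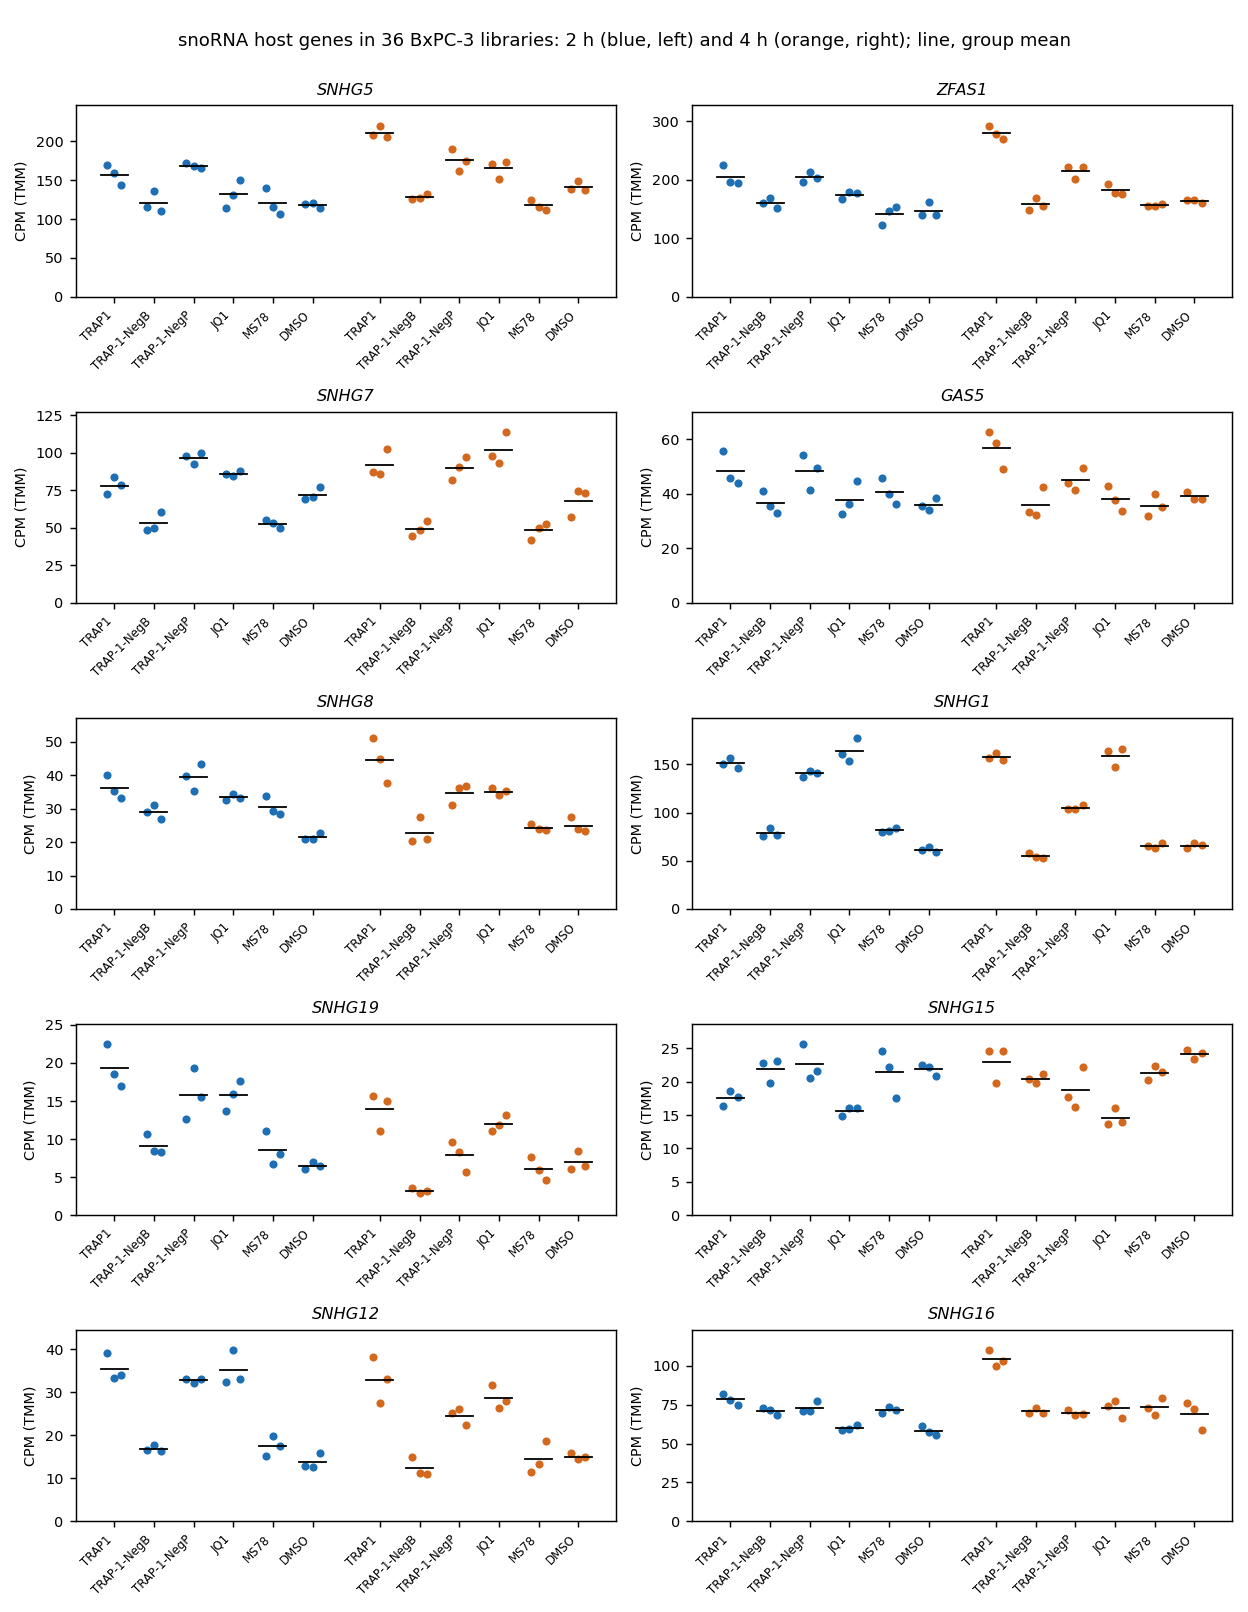
Level of each gene in each library, in CPM on TMM-adjusted totals (vertical axes from 0), for the 6 treatments at 2 h (blue, left) and 4 h (orange, right); points are libraries and lines are means of 3. SNHG1, SNHG12 and SNHG19 show the widest gaps between TRAP1 and DMSO, and SNHG15 is low with JQ1 at both times.

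Most of these RNAs were higher with TRAP1 at both times. At 2 h, 8 of the 10 were higher than with DMSO and none was called lower, where 15.7% of all genes tested were called higher and 14.3% lower. At 4 h, 9 were higher and none was called lower, against 22.2% of all genes higher and 24.5% lower. The median of the 10 was 0.46 at 2 h and 0.69 at 4 h, beside 0.011 and -0.022 for all genes tested. Scaling by library totals with no TMM factor, a choice made after the data were seen, moved the median of all genes to -0.11 at 2 h and -0.29 at 4 h, and the share of all calls that were higher to 30.1% from 52.4% at 2 h and to 22.1% from 47.5% at 4 h. On that scale the median of the 10 genes was 0.33 and 0.42, with 8 higher and 1 lower (SNHG15) at 2 h, and 7 higher and 1 lower (SNHG15) at 4 h. Of all 14988 genes tested, 4664 at 2 h and 7641 at 4 h were called on that scale, 30.1% and 22.1% of them higher.

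Marker genes moved in the same comparisons. The epithelial markers summed to 10195 to 10648 TPM with TRAP1 at 2 h, against 8754 to 8823 TPM with DMSO, and to 11359 to 11604 TPM with TRAP1 at 4 h, against 9936 to 10791 TPM with DMSO; all 6 were called higher at both times. The mesenchymal markers summed to 2.17 to 2.81 TPM with TRAP1 at 4 h, against 1.04 to 1.7 TPM with DMSO, and the haematopoietic and endothelial markers to 4.53 to 5.98 TPM with TRAP1, against 6.96 to 8.67 TPM with DMSO. Of the 7 genes of these lists that were tested, COL1A1 rose on the log2 scale by 0.82 (SE 0.24, adjusted p = 0.00366) with TRAP1 at 4 h and CD3E by 1.78 (SE 0.67, adjusted p = 0.024). CD14 fell, with -1.18 (SE 0.42, adjusted p = 0.016), and so did CDH5, with -0.85 (SE 0.28, adjusted p = 0.00906). THY1 was also called higher, at 0.98 ± 0.57 CPM with TRAP1, against 0.0325 ± 0.0564 CPM with DMSO. None of the 7 was called with TRAP1 at 2 h by edgeR, and none was below an unadjusted p of 0.05. At 4 h, CD14 and CDH5 also fell and COL1A1 rose with TRAP-1-NegP, and with JQ1 CD14 fell and COL1A1 and THY1 rose, COL1A1 also at 2 h. The part of these markers in the levels of the host genes was not tested.

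SNHG1, host of SNORD25 to SNORD31 and SNORD22, had 149.9, 157 and 147 CPM in the 3 TRAP1 libraries at 2 h, against 61.5, 63.9 and 59.6 CPM with DMSO. At 4 h the values were 157, 162 and 155 CPM with TRAP1, against 62.9, 68.8 and 65.9 CPM with DMSO. Every TRAP1 library lay above every DMSO library at both times, and SNHG1 rose by 1.29 (SE 0.066, adjusted p = 9.96e-23) at 2 h and 1.26 (SE 0.067, adjusted p = 6.54e-23) at 4 h. SNHG12, whose introns hold SNORA16A, SNORA44, SNORA61 and SNORD99, had 39.1, 33.4 and 33.99 CPM with TRAP1 at 2 h, against 12.9, 12.7 and 15.9 CPM with DMSO. It held 38.2, 27.5 and 33.1 CPM with TRAP1 at 4 h, against 15.8, 14.5 and 14.8 CPM with DMSO. The groups did not overlap, and the rises were 1.36 (SE 0.14) and 1.13 (SE 0.14). SNHG19, the host of SNORD60 printed above, had 22.5, 18.6 and 16.97 CPM with TRAP1 at 2 h, against 6.00, 6.93 and 6.46 CPM with DMSO, a 2.99-fold ratio of means. At 4 h it had 15.6, 10.99 and 15.03 CPM with TRAP1, against 6.07, 8.42 and 6.39 CPM with DMSO. With log2 changes of 1.58 (SE 0.20, adjusted p = 9.53e-09) and 1.00 (SE 0.20, adjusted p = 5.02e-05), it moved furthest of the 10 at 2 h, on the fewest counts (at least 56 in every library).

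The rises of the other genes were below 1 on the log2 scale at both times. ZFAS1, which holds the SNORD12 family, had 225, 197 and 195 CPM with TRAP1 at 2 h, against 140.0, 161 and 140.3 CPM with DMSO. At 4 h it had 292, 278 and 269 CPM with TRAP1, against 165, 165 and 161 CPM with DMSO. The rises were 0.48 (SE 0.068) and 0.78 (SE 0.068, adjusted p = 2.11e-14), with no overlap of libraries. SNHG5, host of SNORD50A and SNORD50B, had 208, 219.5 and 205 CPM with TRAP1 at 4 h, against 139, 149 and 137 CPM with DMSO, and rose by 0.41 (SE 0.083) at 2 h and 0.57 (SE 0.082) at 4 h. SNHG8 had 51.1, 44.9 and 37.7 CPM with TRAP1 at 4 h, against 27.4, 24.05 and 23.5 CPM with DMSO. All 3 TRAP1 libraries were above all DMSO libraries, and SNHG8 rose by 0.75 (SE 0.12) at 2 h and 0.84 (SE 0.11) at 4 h.

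GAS5 was named for its accumulation in growth-arrested cells. It had 62.7, 58.6 and 49.1 CPM with TRAP1 at 4 h, against 40.9, 38.04 and 38.3 CPM with DMSO, and rose by 0.43 (SE 0.12) at 2 h and 0.54 (SE 0.12) at 4 h. Without TRAP1 replicate 1 at 2 h its rise at that time was 0.32, with an adjusted p of 0.0741, and on library totals the rise at 4 h had an adjusted p of 0.0508 (edgeR). SNHG16, host of the SNORD1 family, had 110.1, 99.7 and 103 CPM with TRAP1 at 4 h, against 76.3, 72.4 and 58.5 CPM with DMSO. No other treatment brought SNHG16 above 79.1 CPM in a library at 4 h, and it rose by 0.43 (SE 0.08) at 2 h and 0.60 (SE 0.079) at 4 h.

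SNHG7 and SNHG15 were the genes not called at 2 h. SNHG7, host of SNORA17A and SNORA17B, had 72.3, 83.9 and 78.3 CPM with TRAP1 at 2 h, against 69.1, 70.6 and 77.1 CPM with DMSO, an overlap of groups and a change of 0.11 (SE 0.10, adjusted p = 0.434) that was not called. At 4 h it had 87.1, 86.1 and 103 CPM with TRAP1, against 56.99, 74.3 and 73.3 CPM with DMSO, and rose by 0.43 (SE 0.10, adjusted p = 0.000178); on library totals this value was 0.16 and was not called. SNHG15, a short-lived RNA that hosts SNORA9, had 16.4, 18.5 and 17.7 CPM with TRAP1 at 2 h, against 22.5, 22.3 and 20.8 CPM with DMSO. All 3 TRAP1 libraries were lower, but the change of -0.32 (SE 0.13, adjusted p = 0.0579) missed the threshold, which it passed with the DESeq2 Wald test (adjusted p = 0.0351), with length-scaled counts (0.0414) and with only these groups fitted (0.0149). At 4 h SNHG15 had 24.5, 19.8 and 24.6 CPM with TRAP1, against 24.7, 23.4 and 24.3 CPM with DMSO, a change of -0.073 (SE 0.13, adjusted p = 0.684).

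**Figure D2:**
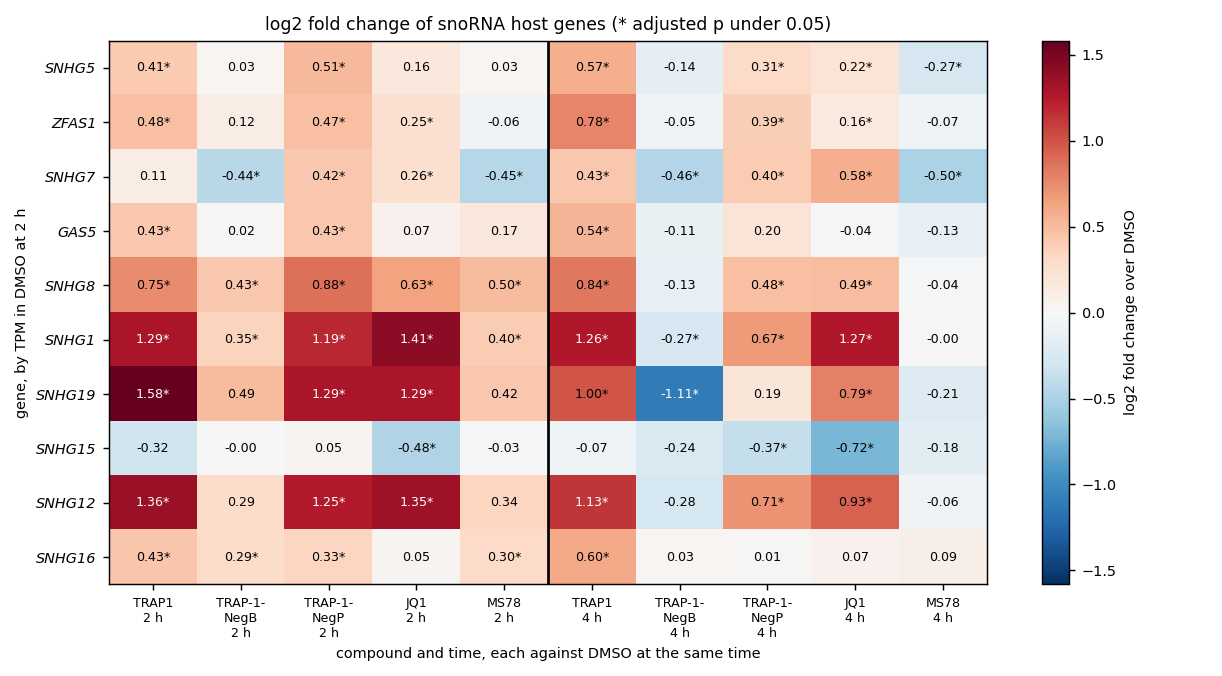
Log2 fold change of each gene (rows, ordered by TPM in DMSO at 2 h) for each compound against DMSO at the same time (columns, 2 h left of the line and 4 h right of it), with an asterisk where the adjusted p is under 0.05. TRAP1, TRAP-1-NegP and JQ1 columns are mostly positive at both times, and the TRAP-1-NegB and MS78 columns of 4 h hold no positive call.

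With TRAP-1-NegP and with JQ1 most of the genes were higher too, both set against the same DMSO libraries as TRAP1. With TRAP-1-NegP at 2 h, 9 of the 10 were higher and none was called lower, where 16.4% of all genes were called higher and 13.9% lower; SNHG15 had 0.047 (SE 0.13, adjusted p = 0.843). GAS5 lost its call at 2 h without TRAP-1-NegP replicate 1 (adjusted p = 0.0606). At 4 h, 6 were higher and 1 lower, where 18.6% of all genes were called higher and 18.9% lower. The 6 were SNHG1, SNHG5, SNHG7, SNHG8, SNHG12 and ZFAS1. SNHG1 had 137, 143 and 142 CPM with TRAP-1-NegP at 2 h and 104, 104 and 108 CPM at 4 h, and rose by 1.19 (SE 0.067) and 0.67 (SE 0.067). SNHG19 had 12.7, 19.3 and 15.6 CPM with TRAP-1-NegP at 2 h and 9.65, 8.35 and 5.72 CPM at 4 h, when its libraries overlapped those of DMSO and the change of 0.19 (SE 0.21, adjusted p = 0.514) was not called. SNHG15 fell by 0.37 (SE 0.13, adjusted p = 0.0197) at 4 h, a call that was lost without DMSO replicate 1 (adjusted p = 0.0542) or without TRAP-1-NegP replicate 1 (0.0747) or 2 (0.143). On library totals, 4889 of the 14988 genes tested were called at 2 h and 6059 at 4 h. Of these calls 29.8% and 25.2% were higher, against 54.2% and 49.6% with TMM. The 10 genes gave 7 higher at 2 h, and 5 higher and 1 lower at 4 h. The calls lost were those of GAS5 and SNHG16 at 2 h and of SNHG5 at 4 h (0.13, adjusted p = 0.163). SNHG8 at 4 h lost its call with length-scaled counts (0.0714).

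With JQ1, 6 of the genes were higher and 1 lower at 2 h, where 14.8% of all genes were called higher and 13.9% lower. At 4 h, 7 were higher and 1 lower, against 24.3% and 24.6% of all genes. The gene that fell was SNHG15 at both times. It had 14.9, 16.1 and 16.005 CPM with JQ1 at 2 h, against 22.5, 22.3 and 20.8 CPM with DMSO, and 13.7, 16.1 and 14.02 CPM with JQ1 at 4 h, against 24.7, 23.4 and 24.3 CPM with DMSO. Every JQ1 library was below every DMSO library, with changes of -0.48 (SE 0.13, adjusted p = 0.00327) and -0.72 (SE 0.13, adjusted p = 6.01e-06). SNHG1 had 161, 153 and 177 CPM with JQ1 at 2 h and 163, 147 and 166 CPM at 4 h, and rose by 1.41 (SE 0.067) and 1.27 (SE 0.067). SNHG12 rose by 1.35 (SE 0.14) and 0.93 (SE 0.14), and SNHG19 by 1.29 (SE 0.20) and 0.79 (SE 0.21). GAS5 and SNHG16 were called at neither time, with GAS5 at 0.073 (SE 0.12) and -0.035 (SE 0.12) and SNHG16 at 0.049 (SE 0.08) and 0.073 (SE 0.08). ZFAS1 at 4 h (0.16, SE 0.068, adjusted p = 0.0493) lost its call with the DESeq2 Wald test (adjusted p = 0.055), DESeq2 size factors (0.051), no count filter (0.117) and the replicate block (0.0527), and without DMSO replicate 1, 2 or 3 or JQ1 replicate 1 or 2. On library totals its value was 0.03 (adjusted p = 0.761), and that of SNHG5 at 4 h was 0.093 (0.323). SNHG5 at 4 h (0.22, SE 0.082) lost its call without DMSO replicate 1 or 3 or JQ1 replicate 1 or 3, and SNHG7 at 2 h without DMSO replicate 1 or 2 or any JQ1 library and with length-scaled counts (0.0897). On library totals, 4282 of the 14988 genes tested were called at 2 h and 7501 at 4 h. Of these calls 34.96% and 37.04% were higher, against 51.6% and 49.7% with TMM. The 10 genes gave 4 higher and 1 lower at 2 h, when SNHG7 and ZFAS1 were not called, and 5 higher and 1 lower at 4 h.

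TRAP-1-NegB and MS78 gave small changes at 2 h and no rise that was called at 4 h. With TRAP-1-NegB at 2 h, SNHG1 (0.35, SE 0.067), SNHG8 (0.43, SE 0.12) and SNHG16 (0.29, SE 0.08) were higher and SNHG7 (-0.44, SE 0.10) was lower, 3 and 1 of 10 where 5.08% of all genes were called higher and 5.87% lower. MS78 at 2 h gave the same 3 and 1, with SNHG1 at 0.40 (SE 0.067), SNHG8 at 0.50 (SE 0.12), SNHG16 at 0.30 (SE 0.08) and SNHG7 at -0.45 (SE 0.10), where 8.3% of all genes were called higher and 7.65% lower. Without MS78 replicate 1 at 2 h, which stood apart, SNHG12 was also higher (0.44, adjusted p = 0.0466). With only MS78 and DMSO at 2 h fitted, SNHG8 (0.0607) and SNHG16 (0.113) lost their calls, by adjusted p. SNHG16 lost its call with TRAP-1-NegB at 2 h without TRAP-1-NegB replicate 1 or DMSO replicate 3. At 4 h TRAP-1-NegB left none higher by edgeR or by DESeq2 and 3 lower, SNHG1, SNHG7 and SNHG19, with the same 3 genes and no other below an unadjusted p of 0.05. Only 0.827% of all genes were called higher and 0.2% lower in that comparison. SNHG19 had 3.57, 2.9 and 3.19 CPM with TRAP-1-NegB at 4 h, against 6.07, 8.42 and 6.39 CPM with DMSO. All 3 libraries were below DMSO, and the gene fell by 1.11 (SE 0.22, adjusted p = 0.0017). SNHG1 had 57.6, 53.7 and 52.7 CPM with TRAP-1-NegB, against 62.9, 68.8 and 65.9 CPM with DMSO, and -0.27 (SE 0.068, adjusted p = 0.0275). Without DMSO replicate 2 or 3 at 4 h the calls of SNHG1 and SNHG7 were lost, which left 1 of the 3. The SNHG1 call was also lost without TRAP-1-NegB replicate 2 or 3, with no count filter (adjusted p = 0.0594) and with only these groups fitted (0.1), and that of SNHG7 without TRAP-1-NegB replicate 1. With MS78 at 4 h none was higher by edgeR or by DESeq2 and 2 were lower, SNHG7 (-0.50, SE 0.10) and SNHG5 (-0.27, SE 0.083), and these were also the 2 below an unadjusted p of 0.05. Of all genes, 6.23% were called higher and 9.05% lower. The SNHG5 call was lost without MS78 replicate 2 or 3 or DMSO replicate 2 or 3, and on library totals, where 63.5% of all calls were higher against 40.8% with TMM. For TRAP-1-NegB at 4 h the share of calls that were higher was 59.9% on library totals, against 80.5% with TMM.

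SNHG7 was lower with these compounds at both times. It had 48.8, 50.2 and 60.9 CPM with TRAP-1-NegB and 55.4, 53.1 and 49.8 CPM with MS78 at 2 h, against 69.1, 70.6 and 77.1 CPM with DMSO. At 4 h it had 44.8, 48.5 and 54.8 CPM with TRAP-1-NegB and 42.2, 49.9 and 52.8 CPM with MS78, against 56.99, 74.3 and 73.3 CPM with DMSO. No library of these compounds reached the lowest DMSO library of its time. With TRAP-1-NegP SNHG7 was higher, by 0.42 (SE 0.10) at 2 h and 0.40 (SE 0.10) at 4 h, as it was with JQ1, by 0.26 (SE 0.10) and 0.58 (SE 0.10).

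Pairs of compounds were compared at the same dose and time: TRAP1 with the other 4, and also JQ1 with TRAP-1-NegP, 10 comparisons over both times, with p-values adjusted over all genes within each. At 2 h none of the 10 genes differed between TRAP1 and TRAP-1-NegP by edgeR or by DESeq2, and 2 were below an unadjusted p of 0.05; 0.801% of all genes were called. The median difference was 0.0035, and the 95% intervals were narrow for the abundant genes, -0.13 to 0.14 for ZFAS1, -0.027 to 0.23 for SNHG1 and -0.27 to 0.066 for SNHG5. For SNHG19 the interval was -0.10 to 0.68. SNHG7 had -0.31 (SE 0.10) with an interval of -0.50 to -0.12, and SNHG15 -0.36 (SE 0.13) with -0.63 to -0.10; the 3 TRAP1 libraries lay below the 3 TRAP-1-NegP libraries in both. SNHG7 passed the threshold when only these groups were fitted (adjusted p = 0.000696).

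At 4 h, 8 of the 10 were higher with TRAP1 than with TRAP-1-NegP, where 7.25% of all genes were called higher. SNHG1 had 157, 162 and 155 CPM with TRAP1, against 104, 104 and 108 CPM with TRAP-1-NegP, a difference of 0.59 (SE 0.065, adjusted p = 5.52e-10). SNHG16 had 110.1, 99.7 and 103 CPM with TRAP1, against 71.7, 68.2 and 69.3 CPM with TRAP-1-NegP, a difference of 0.58 (SE 0.079, adjusted p = 1.27e-07). SNHG19 differed by 0.81 (SE 0.20), SNHG12 by 0.42 (SE 0.14), ZFAS1 by 0.38 (SE 0.067), SNHG8 by 0.36 (SE 0.11), GAS5 by 0.34 (SE 0.12) and SNHG5 by 0.27 (SE 0.082). SNHG7 was not called, with an interval of -0.16 to 0.22, nor was SNHG15, with 0.037 to 0.56. Without TRAP1 replicate 1, which stood apart, or without TRAP-1-NegP replicate 1, the count was 5; GAS5, SNHG8 and SNHG12 lost their calls in each case. The further losses were those of GAS5 without TRAP1 replicate 2 or TRAP-1-NegP replicate 2, SNHG8 without TRAP1 replicate 2, SNHG12 without TRAP1 replicate 3 or TRAP-1-NegP replicate 3, and SNHG5 without TRAP1 replicate 2 or TRAP-1-NegP replicate 2 or 3. SNHG15 gained a call without TRAP1 replicate 2 or TRAP-1-NegP replicate 3. On library totals the count was 4 (SNHG1, SNHG16, SNHG19 and ZFAS1). On that scale 2926 of the 14988 genes tested were called, 22.04% of them higher, against 47.3% of the calls with TMM. SNHG1, SNHG16 and ZFAS1 kept their calls in every alternative run, and SNHG19 in all but the one without TRAP-1-NegP replicate 3 (adjusted p = 0.053).

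Against JQ1, TRAP1 gave 1 higher gene at 2 h, SNHG16 (0.39, SE 0.08, adjusted p = 0.00219), where 1.1% of all genes were called higher. SNHG16 had 81.7, 78.4 and 75.1 CPM with TRAP1 and 58.9, 59.6 and 61.6 CPM with JQ1 at 2 h, with no overlap. That count was 3 without JQ1 replicate 3, when GAS5 and SNHG5 were also called. At 4 h, 6 were higher with TRAP1 (ZFAS1, GAS5, SNHG15, SNHG16, SNHG5 and SNHG8), where 12.5% of all genes were called higher. ZFAS1 had 292, 278 and 269 CPM with TRAP1, against 193, 178 and 177 CPM with JQ1, a difference of 0.62 (SE 0.068, adjusted p = 2.18e-10). SNHG15 had 24.5, 19.8 and 24.6 CPM with TRAP1, against 13.7, 16.1 and 14.02 CPM with JQ1, a difference of 0.65 (SE 0.13, adjusted p = 0.00012). SNHG8 lost its call without TRAP1 replicate 1 (adjusted p = 0.136) and without JQ1 replicate 2 (0.0641), with length-scaled counts (0.0852) and on library totals (0.176). SNHG1, SNHG12, SNHG19 and SNHG7 were not called, with intervals of -0.14 to 0.12, -0.076 to 0.48, -0.20 to 0.60 and -0.34 to 0.046. On library totals 31.1% of all calls at 2 h and 21.1% at 4 h were higher, against 55.4% and 45.6% with TMM, and SNHG7 was then lower with TRAP1 than with JQ1 at 4 h (-0.29).

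JQ1 and TRAP-1-NegP differed from each other. At 2 h JQ1 left SNHG1 higher (0.22, SE 0.065) and 5 genes lower than TRAP-1-NegP did, SNHG15 (-0.53, SE 0.13), GAS5 (-0.36, SE 0.12), SNHG5 (-0.35, SE 0.083), SNHG16 (-0.29, SE 0.08) and ZFAS1 (-0.23, SE 0.068), where 5.65% of all genes were called higher and 7.26% lower. This count of 6 was 2 without JQ1 replicate 1 and 3 without TRAP-1-NegP replicate 1 or 3; SNHG1 lost its call without JQ1 replicate 3, GAS5 and SNHG16 without JQ1 replicate 2, and ZFAS1 without TRAP-1-NegP replicate 2. At 4 h SNHG1 (0.60, SE 0.065) and SNHG19 (0.60, SE 0.20) were higher with JQ1, and ZFAS1 (-0.23, SE 0.068) and SNHG15 (-0.35, SE 0.13) were lower, against 12.9% of all genes in each direction. Without JQ1 replicate 3 or TRAP-1-NegP replicate 3 that count of 4 was 2, and SNHG15 also lost its call without JQ1 replicate 1 or TRAP-1-NegP replicate 1, and SNHG19 without JQ1 replicate 2. The SNHG15 call was also lost with no count filter (adjusted p = 0.062), with length-scaled counts (0.0664), on library totals (0.0781) and with only these groups fitted (0.073). On library totals 62.6% of all calls at 2 h were higher, against 43.8% with TMM, and GAS5 and ZFAS1 were not called.

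Set against TRAP-1-NegB and MS78, TRAP1 gave higher values for the genes called. Against TRAP-1-NegB, 8 were higher at 2 h and 9 at 4 h, where 11.6% and 22% of all genes were called higher. Against MS78, 6 were higher at 2 h and 9 at 4 h, where 12% and 23.9% of all genes were called higher. Without MS78 replicate 1 at 2 h, GAS5 and SNHG8 were called too, which made 8. Against TRAP-1-NegB at 2 h SNHG8 lost its call without TRAP1 replicate 1 or 2 or any TRAP-1-NegB library, and GAS5 without TRAP1 replicate 1 or TRAP-1-NegB replicate 2 or 3. SNHG19 differed most, by 2.10 (SE 0.22) from TRAP-1-NegB at 4 h. The gene not called at 4 h was SNHG15, with 0.17 (SE 0.13) and 0.11 (SE 0.13). On library totals the higher share of all calls was 22.7% and 24.2% against TRAP-1-NegB, in place of 55.97% and 47.6%, and 29.96% and 20.3% against MS78, in place of 53.01% and 48.6%; SNHG15 was then called lower against both compounds at 2 h, with -0.46 and -0.38. SNHG15 at 2 h, which had -0.32 (SE 0.13, adjusted p = 0.0784) against TRAP-1-NegB, was called lower there with the DESeq2 Wald test too (adjusted p = 0.0399), with only these groups fitted (0.0172) and without TRAP-1-NegB replicate 2 (0.0414). Against MS78 it had -0.29 (SE 0.13, adjusted p = 0.105) at 2 h and was called lower without MS78 replicate 3 (0.0236). Calls lost on library totals were those of GAS5 and SNHG8 against TRAP-1-NegB at 2 h and of SNHG16 against MS78 at 4 h; that of SNHG8 was also lost with length-scaled counts (0.272) and no count filter (0.0996).

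**Figure D3:**
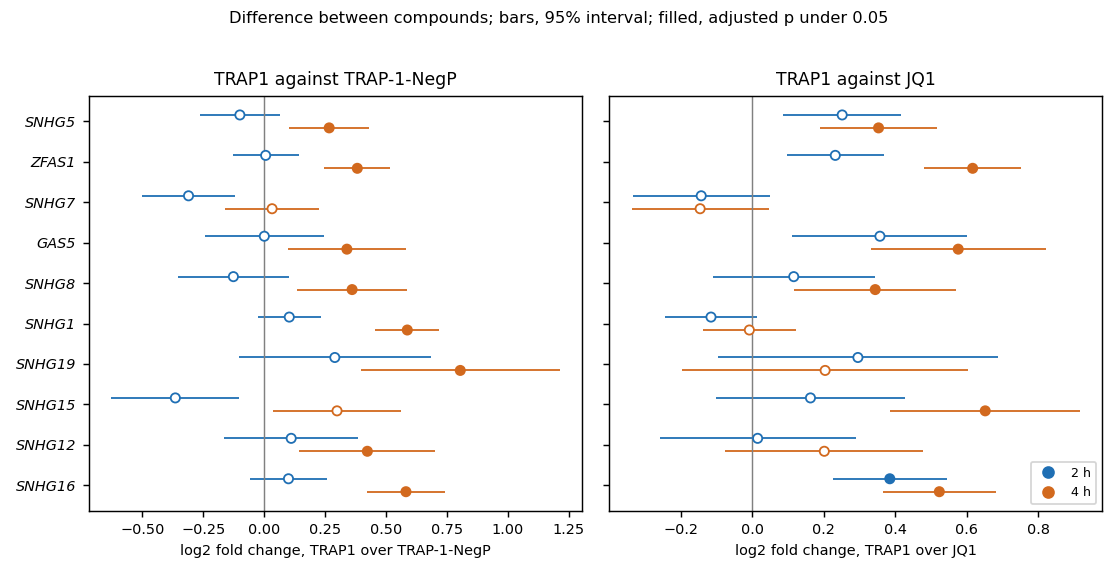
Log2 fold change of TRAP1 over TRAP-1-NegP (left) and over JQ1 (right) for each gene, with 95% intervals, at 2 h (blue) and 4 h (orange); filled points have an adjusted p under 0.05. Against TRAP-1-NegP no point is filled at 2 h and 8 are filled at 4 h; against JQ1 1 is filled at 2 h and 6 at 4 h.

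Whether an effect changed with time was tested as the difference between the 4 h and the 2 h fold change over DMSO. With TRAP-1-NegP, 4 genes had a smaller effect at 4 h, SNHG19 (-1.10, SE 0.29), SNHG12 (-0.54, SE 0.20), SNHG1 (-0.52, SE 0.094) and SNHG16 (-0.32, SE 0.11), where 12.2% of all genes were called in that direction. The count was 2 without DMSO replicate 2 at 2 h, DMSO replicate 1 or 2 at 4 h, or TRAP-1-NegP replicate 3 at 2 h; SNHG1 and SNHG19 were the genes that kept their calls in every alternative, while SNHG12 lost its call on leaving out 10 of the 12 libraries one at a time and SNHG16 on leaving out 7. With the replicate block the SNHG12 difference had an adjusted p of 0.0509; it was also lost with DESeq2 size factors, with length-scaled counts and with no count filter, the last of which ended the SNHG16 call too. TRAP-1-NegB effects were lower at 4 h for SNHG19 (-1.60, SE 0.30), SNHG1 (-0.62, SE 0.095) and SNHG8 (-0.56, SE 0.16), against 0.607% of all genes; SNHG8 lost that call on leaving out 8 of the 12 libraries one at a time and with the replicate block (adjusted p = 0.0567). MS78 effects were lower at 4 h for SNHG8 (-0.54, SE 0.16) and SNHG1 (-0.40, SE 0.095), against 8.33%. Without MS78 replicate 1 at 2 h, which stood apart, SNHG8 lost that call (adjusted p = 0.0855), as it did without DMSO replicate 1 or 2 at 2 h or DMSO replicate 1 at 4 h, on library totals (0.0672) and with only these groups fitted (0.0558). For TRAP1 only ZFAS1 had a larger effect at 4 h (0.29, SE 0.10, adjusted p = 0.0201), where 10.2% of all genes were called in that direction. That call was lost without TRAP1 replicate 2 or 3 at 2 h or replicate 1 at 4 h, without DMSO replicate 2 at 2 h or any DMSO library at 4 h, and on library totals (adjusted p = 0.305). For JQ1 none was called by edgeR or by DESeq2, 2 (SNHG7 and SNHG12) were below an unadjusted p of 0.05, and 26% of all genes were called; SNHG7 was called without JQ1 replicate 2 or DMSO replicate 2 at 4 h. With library totals the higher share of all calls was 22.2% against 46.4% for TRAP1, 53.6% against 75.5% for TRAP-1-NegB and 68.4% against 45.3% for MS78. Between DMSO at 4 h and DMSO at 2 h, SNHG5 (0.26, SE 0.083) and SNHG16 (0.25, SE 0.08) were higher, where 11.4% of all genes were. The SNHG16 call was lost without DMSO replicate 2 at 2 h or replicate 1 at 4 h, and with no count filter (adjusted p = 0.0602). Neither call was left without DMSO replicate 3 at 2 h, without DMSO replicate 2 at 4 h or on library totals, on which 34.7% of all calls were higher against 54.6% with TMM.

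Several members lie beside or across other genes. The sources used here do not state whether counting used strand, so reads of overlapping partners cannot be told apart. SLC3A2, which encodes the heavy chain of several amino acid transporters, starts 224 bases from SNHG1 on the other strand. It changed by 0.23 (SE 0.056, adjusted p = 0.000725) with TRAP1 at 2 h and by 0.14 (SE 0.055, adjusted p = 0.0369) at 4 h, beside 1.29 and 1.26 for SNHG1. Its value was higher with TRAP-1-NegP at 2 h, 0.39 (SE 0.056, adjusted p = 1.02e-07), and with MS78 at 2 h, 0.40 (SE 0.055, adjusted p = 4.44e-07). With TRAP-1-NegB at 4 h SLC3A2 rose by 0.40 (SE 0.055, adjusted p = 1.16e-06), where SNHG1 had -0.27. With JQ1 it had 0.29 (SE 0.056, adjusted p = 4.68e-05) at 2 h and 0.044 (SE 0.055, adjusted p = 0.543) at 4 h, beside 1.41 and 1.27 for SNHG1. The ZFAS1 gene interval begins upstream of the start used for its printed start region. ZNFX1, which encodes an RNA helicase of antiviral defence, starts 121 bases from the beginning of that interval on the other strand. At 2 h it had 0.039 (SE 0.076, adjusted p = 0.767) with TRAP1, and at 4 h it rose by 0.55 (SE 0.076, adjusted p = 1.74e-08) with TRAP1, by 0.50 (SE 0.076, adjusted p = 2.22e-07) with TRAP-1-NegP and by 0.72 (SE 0.076, adjusted p = 8e-12) with JQ1, beside 0.16 for ZFAS1 with JQ1. TRAF7, a ubiquitin ligase gene that starts 424 bases from SNHG19, had 0.15 (SE 0.066, adjusted p = 0.0778) with TRAP1 at 2 h and 0.13 (SE 0.066, adjusted p = 0.0921) at 4 h. It rose by 0.20 (SE 0.066, adjusted p = 0.0145) with TRAP-1-NegP at 2 h, by 0.24 (SE 0.066, adjusted p = 0.00266) at 4 h, and by 0.20 (SE 0.066, adjusted p = 0.0186) with JQ1 at 2 h. TRNAU1AP, which overlaps the end of SNHG12 by 8 bases, had -0.21 (SE 0.17, adjusted p = 0.31) with TRAP1 at 4 h and fell by 0.52 (SE 0.17, adjusted p = 0.0101) with TRAP-1-NegP and by 0.91 (SE 0.17, adjusted p = 9.95e-06) with JQ1, while SNHG12 rose by 0.71 and 0.93. ZBTB37, whose start region overlaps GAS5 by 964 bases, had 0 to 38 counts per library, GAS5-AS1 had 0 to 14, and DIPK1B (FAM69B in the table), which overlaps SNHG7 by 149 bases, had 4 to 93, against at least 621 counts for GAS5 and 823 for SNHG7.

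The annotation behind the deposited values gives SNHG7 and SNHG8 3 transcript models each, SNHG16 4 and ZFAS1 5, and the other 6 genes 1 each. The files name the models by number only, and short overlapping models are split by estimation, so the shares are given as a description. One minor SNHG7 model held 18.2% ± 0.997 of the gene's TPM with TRAP1 at 2 h and 18.8% ± 1.14 with JQ1, against 8.02% ± 1.08 with DMSO. At 4 h the shares were 22.5% ± 2.55 with TRAP1 and 18.8% ± 3.41 with JQ1, against 9.96% ± 3.59 with DMSO. The main SNHG7 model held 76.6% ± 0.764 with TRAP1 at 2 h and 71.7% ± 0.886 at 4 h, against 88.7% ± 1.1 and 86.3% ± 3.51 with DMSO. The leading ZFAS1 model held 40.2% ± 5.4 with TRAP1 at 4 h and 37.6% ± 2.62 with DMSO, a gap smaller than the larger SD. In SNHG8 and SNHG16 the shares of single models varied between replicates by up to 14.4 percentage points (SD).

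The other host genes were counted for TRAP1, TRAP-1-NegP and JQ1 at 4 h. Of the 10 other noncoding snoRNA hosts tested, 3 rose with TRAP1, SNHG3 (0.70), EPB41L4A-AS1 (0.61) and SNHG6 (0.30), and 2 fell, SNHG11 (-0.71) and SNHG17 (-0.45); the median was 0.19. These counts lie near the shares over all genes tested, 22.2% higher and 24.5% lower. SNHG3 had 59.3 ± 4.64 CPM with TRAP1, against 36.4 ± 3.23 CPM with DMSO. C6orf48 (0.22), DANCR (0.16), SNHG10 (0.036), SNHG4 (-0.074) and SNHG9 (0.32) did not pass the test, and SNHG4 and SNHG9 averaged below 2 CPM. With TRAP-1-NegP the gene that passed the test was SNHG17, which fell (-0.51), and with JQ1 SNHG3 rose (0.65) and SNHG11 (-1.10) and SNHG17 (-0.78) fell. Over all genes tested, 18.6% rose and 18.9% fell with TRAP-1-NegP, and 24.3% and 24.6% with JQ1. None of these host counts lies above those shares.

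Protein-coding snoRNA hosts, many of them ribosomal protein and translation factor genes, mostly rose with TRAP1 and TRAP-1-NegP. With TRAP1 35 of 43 were higher and 3 lower (median 0.45). With TRAP-1-NegP 34 were higher and 4 lower (median 0.26), and with JQ1 16 and 7 (median 0.076). Over all genes tested, 22.2%, 18.6% and 24.3% were called higher and 24.5%, 18.9% and 24.6% lower. The falls in this list thus lie below the shares of all genes. For each compound, up to 3 genes per direction with the lowest adjusted p by edgeR are named. A gene named for 1 compound may therefore have changed with the others too. HSPA8, a constitutive heat shock cognate chaperone, rose by 0.88, 0.80 and 0.83 with TRAP1, TRAP-1-NegP and JQ1. SNX5, a sorting nexin, rose by 0.90, 0.69 and 0.98. EIF4A1, the helicase of cap-dependent initiation, rose by 0.63 with TRAP1 and 0.44 with TRAP-1-NegP, and NCL, encoding nucleolin, by 0.68 with JQ1. PPAN, a ribosome assembly factor, fell with all 3 compounds, with log2 changes of -1.42, -0.98 and -1.59. DKC1, the pseudouridine synthase of H/ACA particles and itself a host, fell with changes of -0.21, -0.28 and -0.24. WDR43, a ribosomal RNA processing factor, fell with TRAP1 (-0.36) and TRAP-1-NegP (-0.31), and SNRPB, a spliceosome protein gene, with JQ1 (-0.32).

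Genes of the proteins that package snoRNAs moved both ways. Of 18 snoRNP core and assembly genes, 6 rose and 4 fell with TRAP1, 3 and 4 with TRAP-1-NegP, and 4 and 12 with JQ1. Over all genes tested, 22.2% rose and 24.5% fell with TRAP1, 18.6% and 18.9% with TRAP-1-NegP, and 24.3% and 24.6% with JQ1. The counts with TRAP-1-NegP, the falls with TRAP1 and the rises with JQ1 are thus near the shares of all genes. Their medians were 0.09, 0.019 and -0.19, beside -0.022, -0.015 and -0.012 for all genes tested. The box C/D proteins NOP56 (0.46, 0.35 and 0.30) and NOP58 (0.47, 0.18 and 0.70) rose with TRAP1, TRAP-1-NegP and JQ1, as did NOLC1, a nucleolar chaperone of snoRNPs (0.33, 0.33 and 0.50). GAR1, an H/ACA core protein, fell with all 3 (-1.02, -1.05 and -1.67). Assembly factors also fell, ZNHIT6 with TRAP1 (-0.81) and SHQ1 with TRAP-1-NegP (-0.80), and so did NOP10, another H/ACA core protein, with JQ1 (-0.40). Genes were named by the same rule, so these last falls are not shown to be particular to 1 compound. NOP56 and DKC1 stand in both lists.

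Genes of nonsense-mediated decay, the pathway that degrades several host RNAs, moved both ways. With TRAP1 8 of 17 rose and 8 fell, with TRAP-1-NegP 5 and 4, and with JQ1 7 and 5, with medians of 0.21, 0.05 and 0.13. Over all genes tested, 22.2% rose and 24.5% fell with TRAP1, 18.6% and 18.9% with TRAP-1-NegP, and 24.3% and 24.6% with JQ1; the 4 falls with TRAP-1-NegP and 5 with JQ1 are close to those shares. PNRC2, a decapping adaptor (1.20, 0.66 and 1.26), and EIF4A3, an exon junction complex helicase (0.93, 0.79 and 0.94), rose with the 3 compounds. RBM8A, another junction complex gene, rose with TRAP1 (0.43), and UPF1, the central helicase of the pathway, with TRAP-1-NegP (0.43) and JQ1 (0.57). Only up to 3 genes per direction and compound are named, so RBM8A and UPF1 may have changed with the other compounds too. DHX34 (-1.04, -1.05 and -1.17) and SMG9 (-0.56, -0.51 and -0.96), both tied to the kinase step that activates UPF1, fell with all 3. The part of these changes in the host RNA levels was not tested.

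**Figure D4:**
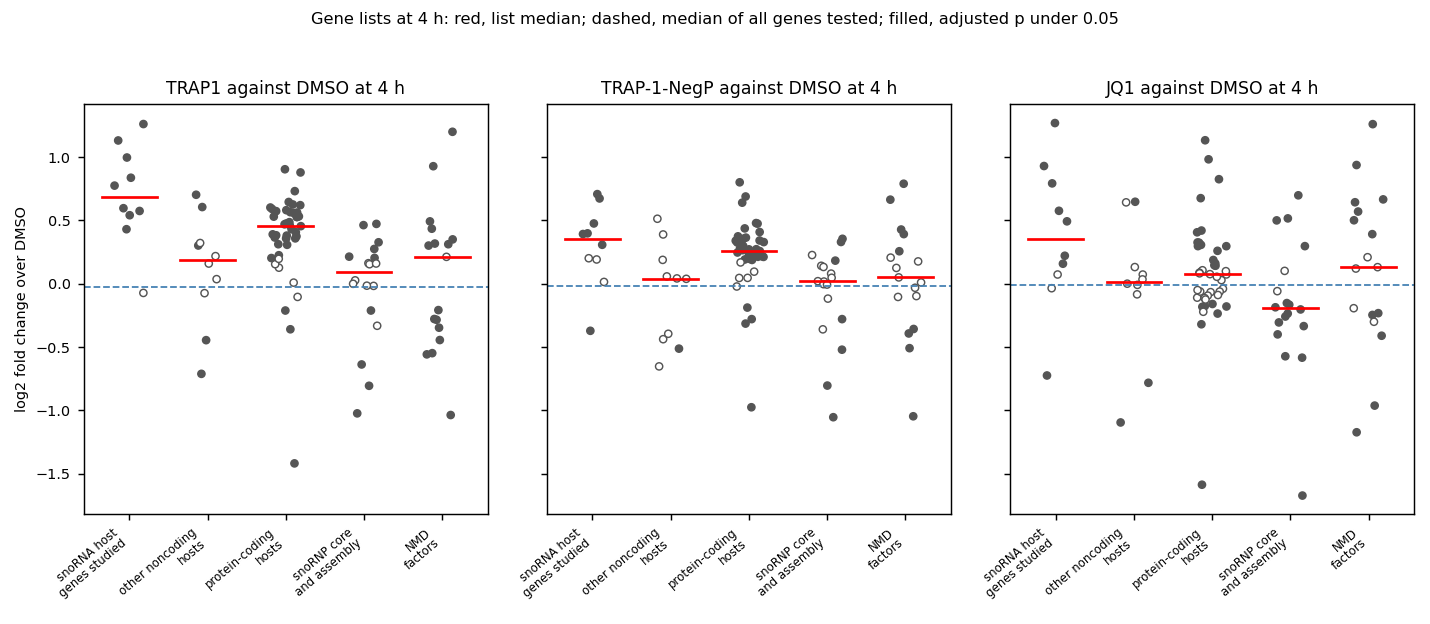
Log2 fold change at 4 h of each gene of 5 lists with TRAP1, TRAP-1-NegP and JQ1 against DMSO; points are genes, filled where the adjusted p is under 0.05, red lines are list medians and dashed lines are medians of all genes tested. The 10 snoRNA host genes have list medians of 0.69, 0.35 and 0.36, and SNHG15 is the lowest point of that list in each panel.

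Across the 12 group means (log2 CPM), which come from the same 36 libraries and scaling, each gene was set beside the mean of the other 9. SNHG8 (Pearson r = 0.951), SNHG12 (0.936) and SNHG1 (0.914) followed it most closely, and SNHG16 (0.502) and SNHG15 (-0.358) least. Of 10316 other genes with a mean of at least 5 CPM, those with the highest r to the mean of the 10 genes were GADD45A (0.968), VTI1B (0.955), SEC61B (0.948), TBCA (0.946), ATP1B3 (0.945), GLRX2 (0.945), PCNA (0.943), TXNDC17 (0.94), SNHG3 (0.939) and ADM (0.939). SNHG3 was the only other snoRNA host among these 10. The span between the highest and lowest group mean was 1.78 log2 units for GADD45A and 0.31 for VTI1B, beside 0.98 for the mean of the 10 genes. These r values describe 12 points from one set of libraries and carry no p.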

How the data were processed

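RNA of BxPC-3 cells was sequenced as paired-end 150-base reads, per the series' design text. The authors quantified it with Salmon 1.10.3 within nf-core/rnaseq 3.18.0, per the submitters' processing notes and design text, on build hg38; annotation release and strand setting: not given in the sources used here. Gene tables the authors deposited hold estimated counts, length-scaled estimated counts and TPM (scaled by length and by library); the deposited transcript table holds TPM per model. All 36 columns were matched to samples by library name. Estimated counts were rounded, filtered with filterByExpr (minimum count 10, 12 groups) and fitted with edgeR 4.0.16 (R 4.3.3; TMM, robust glmQLFit, glmQLFTest) over all 36 libraries. The procedure was tested on simulated data. The common biological coefficient of variation was 0.135, and TMM factors ran between 0.837 and 1.10. SE and 95% intervals come from that fit; all tests are two-sided, with Benjamini-Hochberg adjustment within each of 26 contrasts. TPM was described without tests and is not TMM-adjusted. Replicate libraries differed by more than sampling noise (chi-square per degree of freedom 4.51 to 44.5), so none was counted as a repeat of another.

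The members, lists and tests were chosen with earlier results of these data known. Named were all 10 genes; in each other list, up to 3 genes per direction with the lowest adjusted p in TRAP1, TRAP-1-NegP and JQ1 against DMSO at 4 h; every tested other noncoding host; the 10 genes most like the mean profile; and genes overlapping a member or starting within 2000 bases of its start. One gene that this rule names is not reported here. Alternatives were DESeq2 1.42.0 (size factors; Wald test), no and stricter count filters, length-scaled counts, a replicate block, only the groups compared, both libraries that stand apart left out, each library left out, and library totals without TMM (added later). Figures used matplotlib 3.10.9 in Python 3.11.15. Promoters and gene positions are RefSeq's on GRCh38.p14, with strands from GENCODE 29.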

Additional observations from a re-analysis of the deposited data

Results flagged for a closer look

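Effects that differed between 4 and 2 h by edgeR's test of the difference itself are listed as values, 10 in all. With TRAP-1-NegB the effect on SNHG19 was -1.11 at 4 h and 0.49 at 2 h, a difference of -1.60 (SE 0.30, adjusted p = 0.000517). The SNHG1 effect of TRAP-1-NegB differed by -0.62 (SE 0.095, adjusted p = 1.45e-05) and that on SNHG8 by -0.56 (SE 0.16, adjusted p = 0.0497). With TRAP-1-NegP the differences were -1.10 (SE 0.29, adjusted p = 0.00365) for SNHG19, -0.52 (SE 0.094, adjusted p = 2.99e-05) for SNHG1, -0.54 (SE 0.20, adjusted p = 0.044) for SNHG12 and -0.32 (SE 0.11, adjusted p = 0.0328) for SNHG16. MS78 effects differed by -0.40 (SE 0.095, adjusted p = 0.00233) for SNHG1 and -0.54 (SE 0.16, adjusted p = 0.019) for SNHG8. With TRAP1 the effect on ZFAS1 differed by 0.29 (SE 0.10, adjusted p = 0.0201). The 9 differences of the compounds other than TRAP1 were negative, and all 10 share their DMSO libraries. Groups of 3 libraries are too small for a test of single outlying samples.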

How the results depend on the processing

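No result that was called changed direction in any alternative. Of the 260 single-gene values, 258 kept their side of the threshold with DESeq2 size factors, 252 with length-scaled counts, 260 with the stricter filter, 249 with none, 247 with only the groups compared, and 229 with library totals, which lost 25 calls and added 6. DESeq2's Wald test kept 255 of 259. The count of genes called moved as follows. With only the groups compared it was 2 for MS78 against DMSO at 2 h, 1 for TRAP1 against TRAP-1-NegP at 2 h, 3 for TRAP1 against JQ1 at 2 h, and 1 each for the JQ1 and MS78 differences between times. Without a filter it was 4 for TRAP1 against JQ1 at 2 h, 2 each for the TRAP1 and TRAP-1-NegP differences between times and 1 for DMSO between times. The Wald test gave 2 for TRAP1 against JQ1 at 2 h, and length-scaled counts 2 for the TRAP1 difference between times. Library totals gave 1 for MS78 against DMSO at 4 h, 4 for TRAP1 against TRAP-1-NegP at 4 h, 0 for the TRAP1 difference between times, 1 for that of MS78 and 0 for DMSO between times. Without both libraries that stand apart it was 5 for TRAP1 against TRAP-1-NegP at 4 h and 1 for the MS78 difference between times. The cause of these moves was not tested.

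No pairing by replicate number was seen over all genes tested: same-numbered libraries deviated with correlations of −0.041 to 0.064 over 63 pairs, none over 0.1. The labels do not say how replicates were made, and a weak pairing could be missed among the noise of low counts. With the replicate block the count was 2 for the TRAP1 and 1 for the JQ1 difference between times, 255 of 260 single values kept their side of the threshold, and no other count moved by over 1.5 times. The block ended the calls of ZFAS1 with JQ1 at 4 h (adjusted p = 0.0527), SNHG12 in the TRAP-1-NegP difference between times (0.0509) and SNHG8 in that of TRAP-1-NegB (0.0567); it added SNHG7 in the TRAP1 and JQ1 differences between times.

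Leaving out 1 library at a time, the count ranged from 7 to 8 (TRAP1), 3 to 5 (TRAP-1-NegB), 8 to 9 (TRAP-1-NegP), 6 to 7 (JQ1) and 4 to 5 (MS78) against DMSO at 2 h. At 4 h it was 9 (TRAP1) and ranged from 1 to 3 (TRAP-1-NegB), 6 to 7 (TRAP-1-NegP), 6 to 7 (JQ1) and 1 to 2 (MS78). For TRAP1 it was 0 against TRAP-1-NegP, 1 to 3 against JQ1, 6 to 8 against TRAP-1-NegB and 6 to 8 against MS78 at 2 h, and 5 to 7, 5 to 6, 9 and 9 at 4 h. For JQ1 against TRAP-1-NegP it was 2 to 5 at 2 h and 2 to 4 at 4 h. Differences between times gave 0 to 1 (TRAP1), 2 to 4 (TRAP-1-NegB), 2 to 4 (TRAP-1-NegP), 0 to 1 (JQ1) and 1 to 3 (MS78), and DMSO between times 0 to 2. Counts of SNHG19, 56 to 521 per library, give it the largest SE of the 10 genes in every comparison, SE 0.20 against 0.066 for SNHG1 with TRAP1 at 2 h.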
